A study of Mus musculus with 121 samples.

Results

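The genes described are 10 of the actin cytoskeleton and of its transcription factor, namely Srf, Acta2, Actb, Tagln, Cnn1, Myl9, Vcl, Tpm1, Tpm2 and Flna. They were taken by name out of 31053 genes in the count table, with no measured value in the rule. Earlier results of these data were known when they were chosen. All 10 passed the filter of 1 CPM (counts scaled to a library total of 1000000) in 3 libraries, as did 13292 genes in all. In the HH libraries, whose titles and library numbers give the same names, Tagln, Acta2, Cnn1, Tpm1 and Flna stood highest at the first collection, where all 4 libraries lay above each of the 15 later ones. This held for 0.557% of all tested genes, and the first collection was singled out after values were seen. By titles Tagln changed over the collections by edgeR's quasi-likelihood test in HL and HH, where 0.301% and 0.293% of all genes passed. The calls were lost without HL replicate 1 or 2 in HL, and without any 1 HH replicate in HH. The first collection of Tagln was 2.15-fold, 2.54-fold and 1.32-fold above the mean of the later ones in HL, HH and LH. By library numbers, where the fifth LH collection has 1 library, it was 2.6-fold above that mean in HL and 2.45-fold in LH. With the filter and all libraries grouped by their titles the other 9 genes did not pass edgeR's test in any treatment. Acta2 and Cnn1 passed in HH without 5 libraries that stood far from the rest, and Cnn1 in HL and HH without 1 HL replicate. Without the filter 5, 4 and 3 of the 10 genes passed in HL, LH and HH by titles.

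The cells were mouse fibroblasts from knockin mice that carry PER2::LUC sv, a fusion of the clock protein PER2 with luciferase, expanded to passage P25. All groups shared this line and genotype, so that differences between groups are those of 1 line in culture. Medium H was rich in glucose and insulin and medium L was poor in glucose. HL had H for 12 h and then L for 12 h in each of 3 cycles of 24 h, LH had the reverse order, and HH had H throughout. After the cycles and a further 12 h of free running, RNA was collected 6 times, 4 h apart, and times below follow the collection number and this interval, counted from the first collection. There were 21 HL, 22 LH and 19 HH libraries, 2 to 4 for each treatment and collection. The study's methods call its replicates biological, while the labels do not tie libraries to separate cultures, so p-values measure the spread between these libraries, which may be technical. In such bulk samples fewer cells of a type and less RNA per cell cannot be told apart.

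Serum response factor, encoded by Srf, binds the CArG box in the promoters of cytoskeletal and immediate early genes. Its cofactors of the myocardin-related family, Mrtfa and Mrtfb, are held in the cytoplasm by monomeric actin, and enter the nucleus when actin polymerises after serum or mechanical stimulation. The genes that respond include contractile ones such as Acta2, Tagln, Cnn1 and Myl9, which rise in fibroblasts that become myofibroblasts, and widely expressed ones such as Actb, Vcl, Tpm1, Tpm2 and Flna. SRF activity in liver and in cultured cells has been tied to daily serum signals. No binding of SRF was measured here, so membership of the group rests on this background.

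The promoter windows of RefSeq (GRCm38.p6, 250 bases before to 50 bases after the start of a gene) were read for the CArG box, which is its own reverse complement and so was found on either strand at once. A window was present for 8 of the 10 genes, and none was used for Actb or Tagln. An exact box lay in the windows of Srf, Myl9 and Vcl, against 1.63% of 32851 windows. Srf had a pair of them, which only 6 windows (0.0183%) held. The boxes are shown because they are the element that SRF binds, with 10 bases on each side and the box in capitals. Each is written on the strand of its gene, with the region it covers.
Srf, chr17:46556225-46556254: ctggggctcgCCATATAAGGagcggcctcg
Srf, chr17:46556205-46556234: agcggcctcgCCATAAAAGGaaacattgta
Myl9, chr2:156775293-156775322: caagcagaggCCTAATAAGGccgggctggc
Vcl, chr14:20929161-20929190: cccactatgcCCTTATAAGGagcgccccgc
The boxes of Srf began 82 and 62 bases before the start used by its window and that of Myl9 161 bases before. The starts used by the windows can differ from the gene bounds of GENCODE M21 given below.

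Boxes with 1 mismatch occurred in 19.9% of all windows, and in those of Myl9, Tpm1, Srf, Acta2 and Flna. The site of Acta2 that began 84 bases before the start used by its window and a site of Tpm1 are given as examples of such near matches. This Acta2 site lies within the bounds of the gene in GENCODE M21.
Acta2, chr19:34255438-34255467: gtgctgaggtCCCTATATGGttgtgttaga
Tpm1, chr9:67049415-67049444: gctcgggtccCCATATATAGtcatatccac
Cnn1 and Tpm2 had neither kind of box in these windows. A match or its absence in a window is a description of letters and not of binding.

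The titles of the libraries and the study's read summary do not agree. For 40 libraries the library number stands in the summary beside another name (35) or not at all (5), so that 57 can be grouped by number. All HH libraries have the same name under both. Results are given by titles, with those by library numbers beside them where a call or a direction differed. The titles also carry a clock hour, which reads 20, 12, 4, 8, 12 and 16 from collection 1 to 6 in both HH and HL, and 16 and 20 at collections 3 and 4 of LH. These hours do not run in steps of 4, and they were not used. The libraries titled HL collection 2 replicate 4 and HL collection 3 replicates 1 and 2 are the first collection of LH by number. For the clock gene Nr1d1, a nuclear receptor that represses Bmal1, the third collection by titles read 148 to 163 CPM in HH, 11.9 to 39.1 CPM in HL and 38.0 to 156 CPM in LH. By numbers it read 119 to 210 CPM in HL and 46.3 to 162 CPM in LH.

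Library totals were 3391603 to 11619095 counts, except for 2 LH libraries, one of 2136819 and one (LH collection 2 replicate 2) of 104912. Counts of a gene ran from a median of 144 for Srf, with a 95% exact binomial interval of about 16.7% on either side, to 54552 for Actb, where it was 0.834%. Such intervals cover counting error only. In 5 libraries the profile of all genes correlated with the median profile at under 0.92 (0.809 to 0.916, against 0.928 to 0.991 in the other 57). These were HL collection 2 replicate 3, HL collection 5 replicate 2, LH collection 2 replicates 1 and 2, and HH collection 6 replicate 3. They held 3501 to 9627 CPM of Actb against 6316 to 15200.1 CPM in the others, and 7311 to 18959 CPM of the nuclear RNA Malat1 against 4951 to 15690.5 CPM. Results are given without them where that changed a call. All 10 fibroblast markers had a mean of at least 1 CPM, and their sum ranged from 9861 to 38620 CPM. Of 6 smooth muscle markers, Myh11, Myocd and Des had means of 0.22, 0.16 and 0.08 CPM, while Smtn had a mean of 71.7 CPM. The other 2 of that list, Lmod1 and Actg2, had 7.21 and 1.13 CPM. Of 4 skeletal muscle markers none reached a mean of 1 CPM, and Myod1 and Ckm were at 0 in all 62 libraries. Among 4 endothelial markers Kdr did, with 172 CPM, of 4 epithelial ones Cdh1 with 1.48 CPM, of 3 cartilage ones Sox9 with 519.6 CPM and of 3 fat ones Fabp4 with 7.10 CPM. Of 4 macrophage markers 3 did, and their sum was at most 28.6 CPM except for 295.5 CPM in the library of 104912 counts.

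Reads came from the 3′ end of transcripts, so that counts were not divided by gene length, and levels below are CPM of 3′ reads. Actb, which encodes the cytoplasmic actin of all cells, had by far the highest level of the group, with a mean of 10179 CPM over the 62 libraries. Tpm1 followed with 961 CPM, Flna with 459.6, Acta2 with 345, Tpm2 with 235.3, Vcl with 132, Tagln with 125, Myl9 with 71.7, Cnn1 with 42.3 and Srf with 23.8 CPM. The level of the transcription factor was thus the lowest of the group, beside 42.3 to 10179 CPM for the genes it is known to drive. Tagln, Vcl and Srf overlap other genes in the annotation (GENCODE M21, GRCm38). Since the use of strand in counting is not given, it is not known whether reads in the shared stretches were counted or left out as ambiguous. Tagln shares 108 bases near its 3′ end with Pcsk7, which had a mean of 6.07 CPM, and overlaps the antisense gene Gm48529, which had 0.40 CPM. Vcl shares 2235 bases at its 3′ end with Ap3m1, which had 17.3 CPM, and Srf lies within Gm26904, which had no counts.

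**Figure D1:**
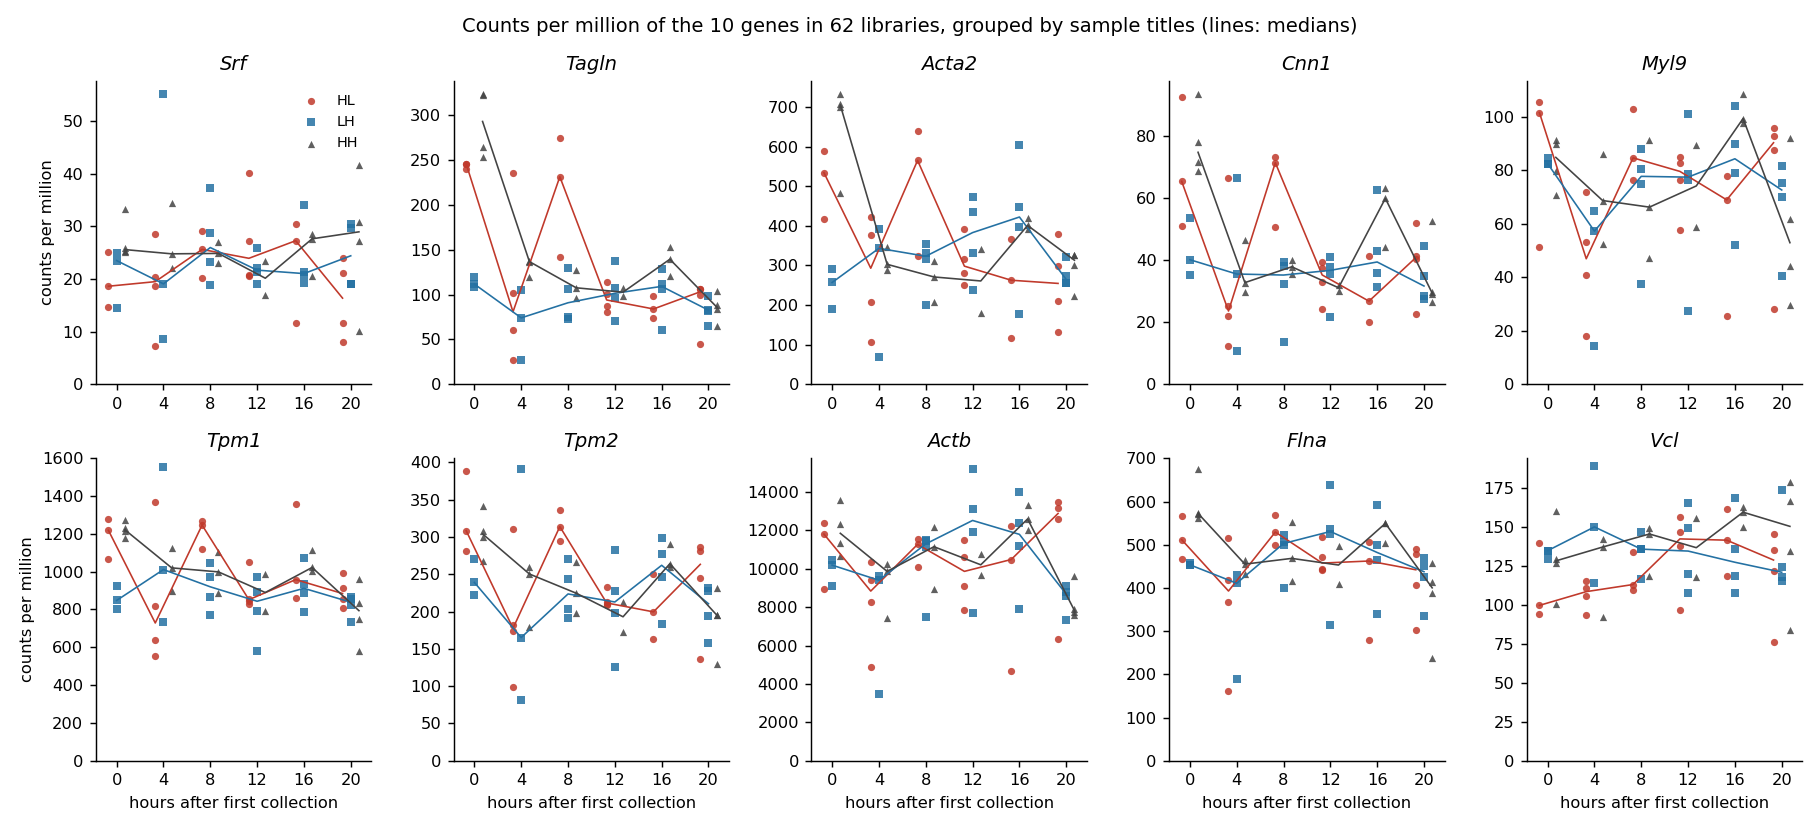
CPM (vertical axes, each from 0) of the 10 genes against hours after the first collection, for every library by its title. Circles are HL, squares LH and triangles HH, and lines join medians. Tagln, Acta2 and Cnn1 have their highest HH triangles at 0 h, with Tagln at 252.97 to 323 CPM there and 64.5 to 153 CPM later, while Srf and Vcl show no such separation.

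Srf (GRCm38 17, 46548329 to 46556175, minus strand) showed a small and scattered signal. In HH it read 25.8, 25.2, 33.3 and 25.3 CPM at the first collection, and later 10.1 to 41.7 CPM with a median of 24.9. In HL it read 14.7, 25.1 and 18.6 CPM at first and 7.22 to 40.1 later (median 20.9), and in LH 14.4, 24.9 and 23.5 CPM at first and 8.54 to 55.2 later (median 21.3). Its counts ran from 2 to 321 in a library, so that single values carry wide counting error, and the highest LH value was 118 counts in the library of 2136819. First and later collections overlapped in every treatment. The difference between the first collection and the mean of the others was 0.11 (SE 0.26) on the log2 scale in HH, -0.19 (SE 0.29) in HL and -0.27 (SE 0.29) in LH. By numbers it was -0.32 (SE 0.25) in HL and 0.17 (SE 0.25) in LH, where the sign turned. The adjusted p for change over collections (edgeR, Benjamini-Hochberg) was 0.994 in HH, 0.874 in HL and 0.935 in LH.

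Among the contractile genes, Tagln (GRCm38 9, 45929619 to 45936058, minus strand), which encodes the actin-binding protein transgelin, had the clearest time course. In HH it read 322, 264.03, 252.97 and 323 CPM at the first collection, 290.6 ± 37.3 (SD, n = 4). At the second it read 137, 137 and 119 CPM, and the later collections lay between 64.5 and 153 CPM with a median of 107. The first collection thus stood apart from all 15 later libraries, and the medians then fell in the order of collections 5, 2, 3, 4 and 6, with overlap between neighbours. In HL by titles it read 239.7, 245.7 and 245.9 CPM at first, 244 ± 3.48 (SD, n = 3). The second collection held 101, 60.0, 27.5 and 236.1 CPM and the third 231.4, 274.1 and 142 CPM, while the fourth to sixth lay between 45.2 and 114 CPM. The 3 later HL libraries at 231.4 to 274.1 CPM overlapped the first collection, and they are the 3 that are LH collection 1 by number. In LH by titles it read 119, 112 and 108 CPM at first and 26.5 to 137 CPM later (median 95.8), with no separation.

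By library numbers, where the fifth LH collection has 1 library, the LH values of Tagln at the first collection were 236.1, 231.4 and 274.1 CPM, and later ones ran from 26.5 to 142 CPM (median 100.4). The HL values at the first collection were those of the titles, and the later ones ran from 60.0 to 137 CPM (median 97.1). In all 3 treatments the first collection then lay above every later library.

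Tagln passed the test for change over collections in HL with an adjusted p of 0.0062 and in HH with 0.00348, and gave 0.474 in LH (edgeR quasi-likelihood, Benjamini-Hochberg). It was 1 of the 10 genes called in HL, where 0.301% of all tested genes passed, and 1 of 10 in HH, where 0.293% passed. In LH 0 of 10 passed against 2.93% of all genes by edgeR, and at an unadjusted p of 0.05 Actb was the 1 gene past it, against 16.9% of all. By library numbers Tagln passed in all 3 treatments, with adjusted p of 1.69e-05 in HH (0.803% of all genes passed), 0.00023 in HL (0.394%) and 0.000279 in LH (1.05%). By titles its calls were lost when replicates were left out. Without HL replicate 1 the adjusted p in HL was 0.0656 and without HL replicate 2 it was 0.171, and without each HH replicate in turn it was 0.0970, 0.0661, 0.0758 and 0.0874 in HH. Without the 5 libraries far from the median profile it was 0.00107 in HL (0.296% of all genes passed) and 0.000214 in HH (0.95%). On the log2 scale the first collection was above the mean of the later ones by 1.35 (SE 0.21) in HH, 1.10 (SE 0.23) in HL and 0.40 (SE 0.25) in LH. By library numbers these differences were 1.38 (SE 0.18) in HL and 1.29 (SE 0.19) in LH. This contrast was chosen after values were seen and is given without a test.

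**Figure D2:**
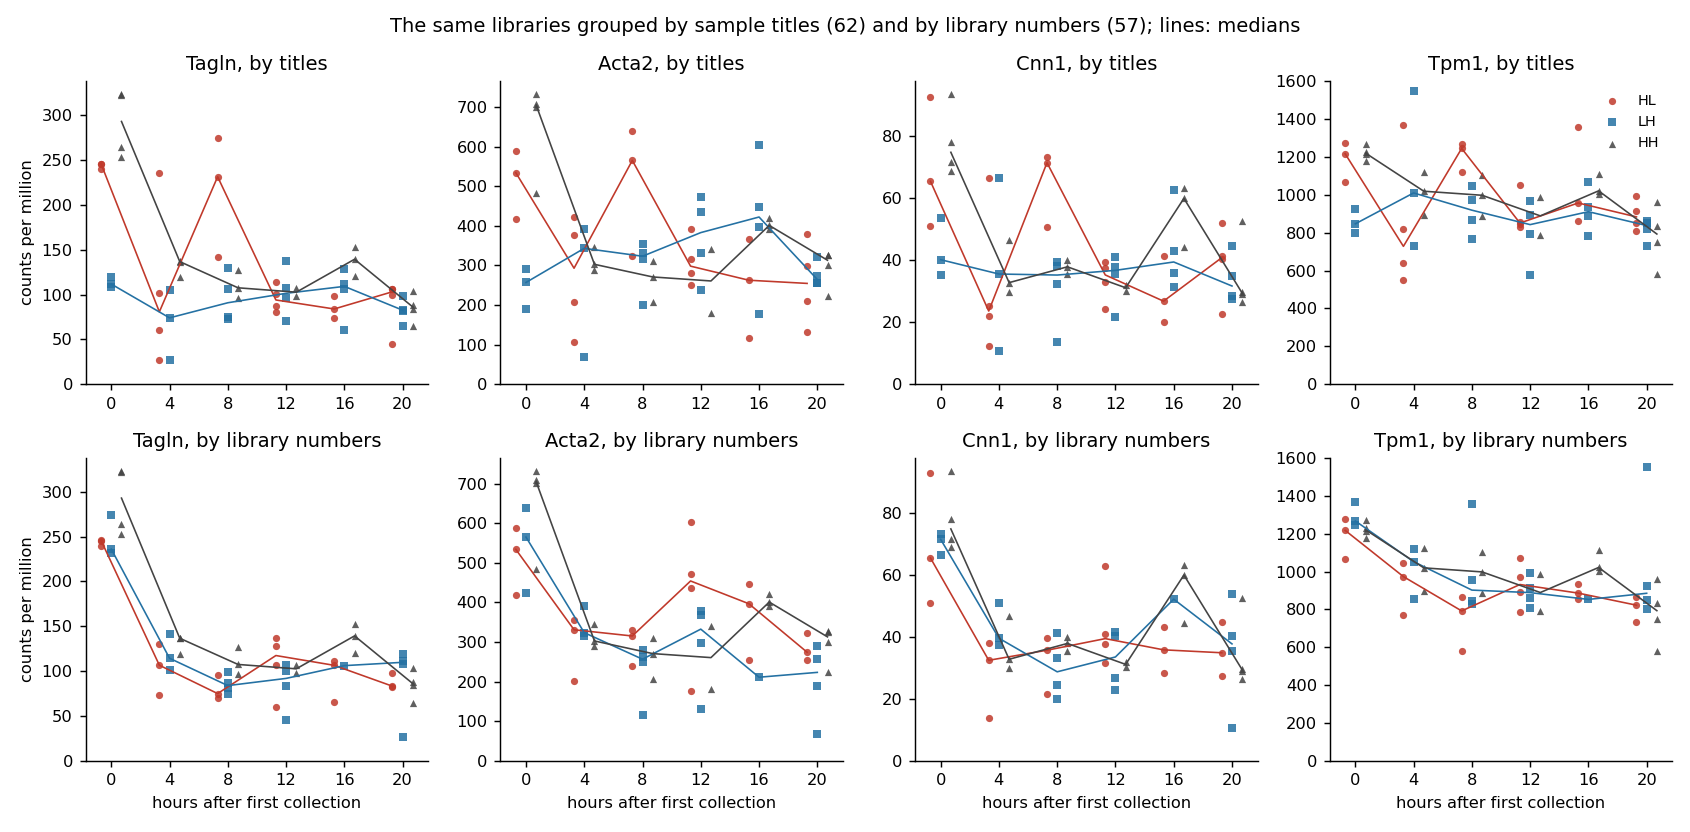
CPM of Tagln, Acta2, Cnn1 and Tpm1 against hours after the first collection, with the same libraries grouped by titles (upper panels, 62 libraries) and by library numbers (lower panels, 57 libraries). Circles are HL, squares LH, triangles HH, and lines join medians. For Tagln the LH squares at 0 h lie at 108 to 119 CPM by titles and at 231.4 to 274.1 CPM by numbers, and the HH triangles are the same in both rows.

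Acta2 (GRCm38 19, 34241090 to 34255590, minus strand) encodes smooth muscle actin, the usual marker of myofibroblasts. In HH it read 709, 484, 701 and 733 CPM at the first collection, 657 ± 116 (SD, n = 4), and 180.2 to 420.2 CPM later, with a median of 309.9. These ranges did not overlap, while in HL the first values of 418, 588 and 534 CPM fell within the later range of 107 to 638 CPM (median 307). In LH by titles the first collection had the lowest median of the 6, with 189.9, 289.7 and 256.8 CPM against 67.8 to 604 CPM later (median 330.1). By library numbers the LH order turned round. The first collection then read 423, 565 and 638 CPM and the later ones 67.8 to 392.2 CPM (median 271.4). On the log2 scale the first collection differed from the mean of the others by 1.08 (SE 0.23) in HH, 0.71 (SE 0.26) in HL and -0.35 (SE 0.28) in LH by titles. By numbers the differences in HL and LH were 0.65 (SE 0.23) and 1.05 (SE 0.24). The HH libraries and their difference of 1.08 are the same by titles and by numbers, while the test's estimate of spread is shared with HL and LH. By titles no treatment passed the test, with adjusted p from edgeR of 0.118 in HH, 0.328 in HL and 0.475 in LH. By numbers LH and HH passed, with 0.0398 and 0.0263. By titles HH passed without the 5 libraries far from the median profile, with 0.00827.

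Cnn1 (GRCm38 9, 22099216 to 22109630, plus strand) encodes calponin 1, which binds actin and slows myosin. In HH it read 78.1, 71.6, 68.9 and 93.7 CPM at first and 26.4 to 63.2 CPM later, with a median of 35.6, so that the ranges did not overlap. The fifth collection came next with 63.2, 44.4 and 60.0 CPM. In HL by titles it read 65.5, 92.8 and 51.0 CPM at first and 12.2 to 73.2 CPM later (median 38.5), and in LH 40.2, 53.8 and 35.3 CPM at first and 10.6 to 66.7 CPM later (median 35.7). Both pairs overlapped. By numbers the first LH values were 66.5, 73.2 and 71.5 CPM, above the later 10.6 to 53.8 CPM. On the log2 scale the first collection differed from the others by 1.0 (SE 0.23) in HH, 0.83 (SE 0.25) in HL and 0.38 (SE 0.26) in LH. By numbers these were 1.01 (SE 0.22) in HL and 0.83 (SE 0.23) in LH. In HH the libraries are the same by numbers, while the estimate of spread, shared with HL and LH, is not. The adjusted p from edgeR was 0.115 in HH, 0.110 in HL and 0.612 in LH. It was 0.0331 in HH without the 5 far libraries, 0.0263 in HH by numbers, and 0.00323 in HL and 0.0362 in HH without HL replicate 4. By numbers without the far libraries it was 0.00432 in HH, 0.0149 in HL and 0.0372 in LH, where 1.48%, 0.93% and 2.21% of all genes passed.

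Myl9 (GRCm38 2, 156775420 to 156781658, plus strand), the regulatory light chain through which kinases switch myosin on, had no first collection that stood apart. In HH it read 91.3, 79.8, 70.9 and 89.7 CPM at first, and later 29.5 to 109 CPM with its highest median at the fifth collection. In HL it read 105, 101 and 51.2 CPM at first and 17.9 to 103 CPM later, and in LH 84.5, 82.4 and 82.4 CPM at first and 14.1 to 104 CPM later. First and later libraries overlapped in each treatment, and in HL the first had the highest median of the 6 by titles and by numbers. The difference of the first collection on the log2 scale was 0.16 (SE 0.27) in HH, 0.33 (SE 0.29) in HL and 0.38 (SE 0.29) in LH, and by numbers 0.28 (SE 0.30) in HL and -0.01 (SE 0.32) in LH. Its lowest values came from far libraries, which held 14.1 to 57.2 CPM against 27.4 to 109 CPM in the other 57. The adjusted p from edgeR was 0.858 in HH, 0.697 in HL and 0.592 in LH.

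The tropomyosins wind along actin filaments and control access of other proteins. Tpm1 (GRCm38 9, 67022590 to 67049406, minus strand) read 1270.2, 1179, 1214 and 1228 CPM at the first HH collection, 1223 ± 37.8 (SD, n = 4), above every later HH library (583 to 1124 CPM, median 988). In HL by titles it read 1217, 1276 and 1067 CPM at first and 551 to 1368 CPM later, and in LH 923, 847 and 801 CPM at first and 579 to 1552 CPM later. By numbers the first LH values were 1368, 1246 and 1267 CPM against 801 to 1552 CPM later. The HH difference of the first collection was 0.35 (SE 0.16) on the log2 scale, 1.27-fold, beside 1.0 to 1.35 for Tagln, Acta2 and Cnn1. By titles it was 0.24 (SE 0.18) in HL and -0.11 (SE 0.18) in LH, and by numbers 0.48 (SE 0.16) in HL and 0.34 (SE 0.16) in LH. The adjusted p of Tpm1 (edgeR) lay between 0.387 and 0.771 by titles, and was 0.0166 in HL and 0.0247 in LH only by numbers without the far libraries.

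Tpm2 (GRCm38 4, 43514711 to 43523765, minus strand) read 342, 308, 267.8 and 299.7 CPM at the first HH collection and 129.7 to 290.5 CPM later (median 224.6), and 1 of the first libraries lay within the later range. In HL by titles it read 389, 308 and 280.7 CPM at first and 98.4 to 336 CPM later, and in LH 222.1, 270.8 and 239.04 CPM at first and 81.9 to 391 CPM later. By numbers the LH first collection, at 311 to 336 CPM, lay above the later range of 81.9 to 294 CPM. The differences by titles were 0.43 (SE 0.17) in HH, 0.47 (SE 0.19) in HL and 0.21 (SE 0.19) in LH on the log2 scale, and by numbers 0.57 (SE 0.18) in HL and 0.44 (SE 0.19) in LH. No setting by titles or numbers gave an adjusted p under 0.05 for Tpm2, except the test without a filter on low counts.

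Of the widely expressed genes, Flna (GRCm38 X, 74223461 to 74249820, minus strand) encodes filamin A, which cross-links actin filaments. It read 676, 562, 574 and 571 CPM at the first HH collection and 238.2 to 554 CPM later (median 458), without overlap. In HL the first values were 512, 567 and 467 CPM within a later range of 162 to 569 CPM, and in LH they were 458, 453 and 454 CPM within 190.2 to 638 CPM. Actb (GRCm38 5, 142903115 to 142906754, minus strand) read 13603, 11341, 10657 and 12352 CPM at the first HH collection and 7459.9 to 13343 CPM later. In HL it read 11806, 12397 and 8962 CPM at first and 4662 to 13499.8 CPM later, and in LH 9092, 10437 and 10188 CPM at first and 3501 to 15200.1 CPM later, all with overlap. Its HH difference at the first collection was 0.21 (SE 0.16) on the log2 scale, against 0.36 (SE 0.14) for Flna. By numbers the difference of Flna was 0.16 (SE 0.15) in HL and 0.26 (SE 0.15) in LH, and that of Actb 0.10 (SE 0.19) and 0.06 (SE 0.19). Vcl (GRCm38 14, 20929398 to 21033676, plus strand), which encodes the adhesion protein vinculin, pointed the other way. It read 161, 101, 129.9 and 127 CPM at the first HH collection and 83.8 to 179 CPM later (median 146), with the lowest median of the 6 collections at the first. Its differences were -0.13 (SE 0.14) in HH, -0.20 (SE 0.16) in HL and -0.07 (SE 0.16) in LH. The lowest adjusted p (edgeR) of these 3 genes for change over collections by titles was that of Actb in LH, 0.230.

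Counted over the group, the first collection had the highest median of the 6 in HH for 6 of 10 genes, beside 20.1% of all genes, and all its libraries lay above every later library for 5 of them, against 0.557% of all genes. By titles it had the highest median for 2 genes in HL and 2 in LH, which is near the 20.1% and 19.2% of all genes, with none above every later library (0.113% and 0.196%). By numbers it had the highest median for 6 genes in each treatment, beside 20.2% of all genes in HH, 18.1% in HL and 19.9% in LH. Then Tagln lay above every later library in HL (0.311% of all genes), and Tagln, Acta2, Cnn1 and Tpm2 in LH (0.599%), while HH had the same 5 genes (0.561%). A first collection at least 2-fold above the mean of the others was seen for 3 of 10 genes in HH (Acta2, Tagln and Cnn1, against 4.5% of all genes), 1 in HL (3.72%) and 0 in LH (4.36%). By numbers it was seen for 3 genes in HH (4.35%), for Tagln and Cnn1 in HL (4.07%) and for Acta2 and Tagln in LH (6.63%), and by titles without the far libraries for 2 in HH (4.42%). The median log2 difference of the group was 0.35 in HH, 0.29 in HL and 0.04 in LH, beside 0.018, 0.002 and -0.001 over all genes. It was above 0 for 9, 8 and 6 of the 10 genes, against 52.3%, 50.3% and 49.7% of all. By numbers the median in LH was 0.30. The first collection was chosen for these counts after values were seen. The share of mitochondrial counts was 2.21% to 3.50% at the first HH collection and 1.55% to 2.74% later (median 1.91%), and by numbers it was 2.85% to 3.32% at the first LH collection and 1.53% to 2.75% later. In HL the first libraries, at 2.31% to 2.596%, lay within the later range by titles and by numbers, as did those of LH by titles (1.89% to 2.38%). The summed smooth muscle markers were 78.8 to 96.8 CPM at the first HH collection, within their later range of 34.4 to 132 CPM, and the fibroblast markers 29149 to 35704 CPM within 15344 to 37379 CPM. Whether the mitochondrial share had a part in the differences was not tested.

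**Figure D3:**
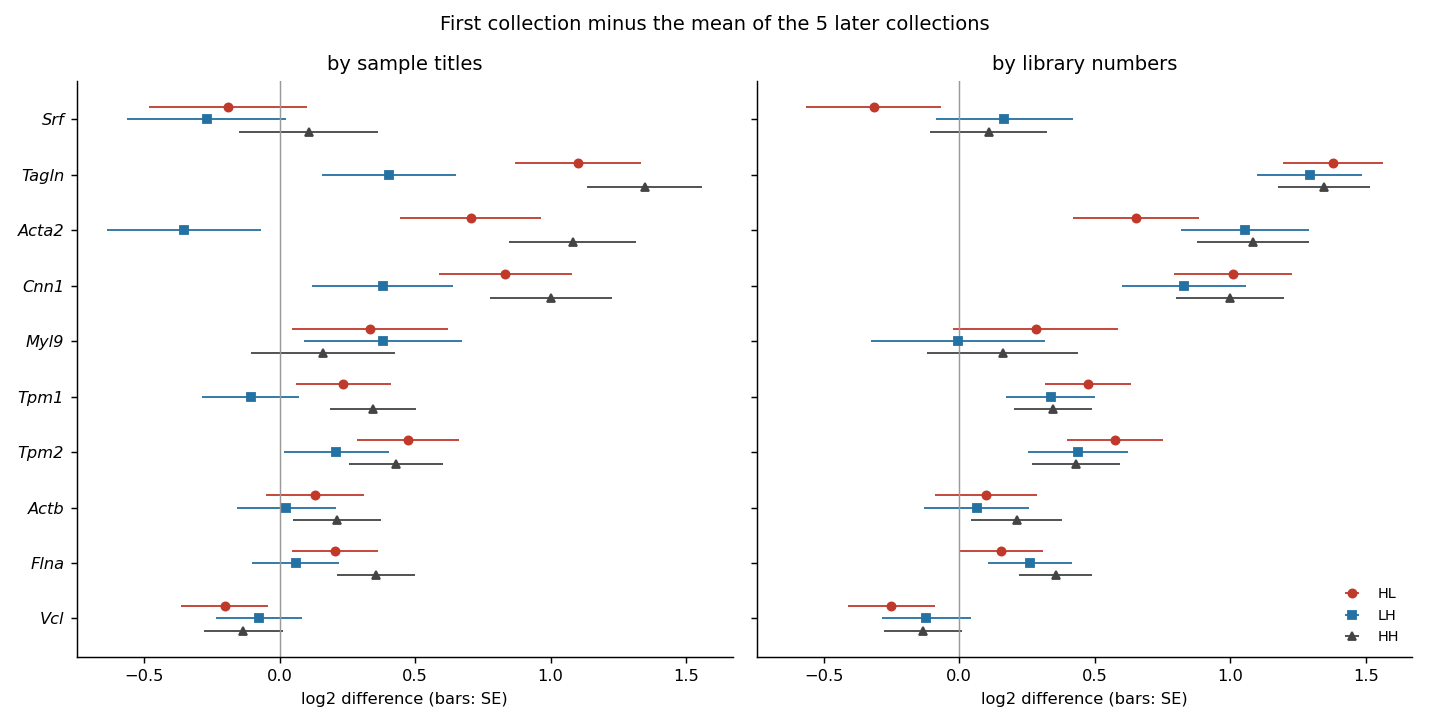
Difference between the first collection and the mean of the 5 later ones (horizontal axis, log2 scale, bars are SE) for the 10 genes, by titles on the left and by library numbers on the right. Circles are HL, squares LH and triangles HH. In HH, Tagln, Acta2 and Cnn1 lie at 1.35, 1.08 and 1.0, Vcl lies at -0.13, and the LH square of Acta2 moves from -0.35 by titles to 1.05 by numbers.

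Whether the time courses differed between treatments was tested as the interaction of treatment and collection. No gene of the group passed by titles, against 0.128% of all genes, with adjusted p from edgeR of 0.192 for Tagln, 0.217 for Acta2 and 0.403 for Cnn1. At an unadjusted p of 0.05 these 3 were past it, against 11.6% of all genes. Without the 5 far libraries Acta2 and Tagln passed, with 0.0357 and 0.0447 where 1.41% of all genes passed, and Tagln also passed without HL replicate 3 (0.0294) or HL replicate 4 (0.0157). By library numbers no gene of the whole table passed by edgeR, and at an unadjusted p of 0.05 0 of the 10 genes were past it, against 789 (5.98%) of all. 

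The mean level over the 6 collections was compared with HL to see what the order or constancy of the rich medium did to the group as a whole. Tagln was lower in LH than in HL by titles, by 0.46 on the log2 scale (SE 0.15, 95% interval -0.75 to -0.16), a level of 0.73 of that in HL. It passed thresholds set after those of the study, a P under 0.01 over the 3 treatments and under 0.05 for the pair, here in edgeR and with no correction over pairs or genes, with 0.00342 and 0.00334. It was 1 of 10 genes past them, against 1.16% of all genes, and its adjusted p (edgeR, Benjamini-Hochberg) was 0.541. The values overlapped, with 27.5 to 274.1 CPM in HL (median 101) and 26.5 to 137 CPM in LH (median 102). The call was lost without LH replicate 2 (-0.41), without LH replicate 4 (-0.46) and by library numbers (0 of 10 genes, against 1.34% of all), where the difference was 0.05 (SE 0.10, 95% interval -0.15 to 0.25). After adjustment over all genes none of the 13292 passed in edgeR for LH against HL, where 756 had an unadjusted p under 0.05. For HH against HL none passed either, and 986 were under that value.

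The other contractile and tropomyosin genes had LH levels below those of HL by titles without passing both thresholds. The log2 difference was -0.32 (SE 0.15) for Cnn1, -0.20 (SE 0.10) for Tpm2, -0.18 (SE 0.09) for Tpm1, -0.13 (SE 0.16) for Acta2 and -0.09 (SE 0.15) for Myl9. Tpm1 passed beside Tagln without the 5 far libraries (1.57% of all genes passed), and without LH replicate 1 at -0.30. By numbers the sign turned for Cnn1 (0.09), Myl9 (0.04), Tpm2 (0.06) and Tpm1 (0.25, SE 0.09), none of which passed both thresholds. Srf was at 0.15 (SE 0.14, 95% interval -0.12 to 0.43) by titles and -0.14 (SE 0.13) by numbers, and Vcl at 0.13 (SE 0.08) by titles. The median over the group was -0.11 by titles, beside 0.001 over all genes, and 0.04 by numbers. For HH against HL, 0 of 10 genes passed, against 1.2% of all genes, and the differences ran from -0.11 for Tpm2 to 0.25 (SE 0.15) for Srf. For Tagln this difference was 0.03, with a 95% interval from -0.27 to 0.33, and by numbers 0.22 (SE 0.10), where 0 of 10 genes and 0.568% of all passed.

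**Figure D4:**
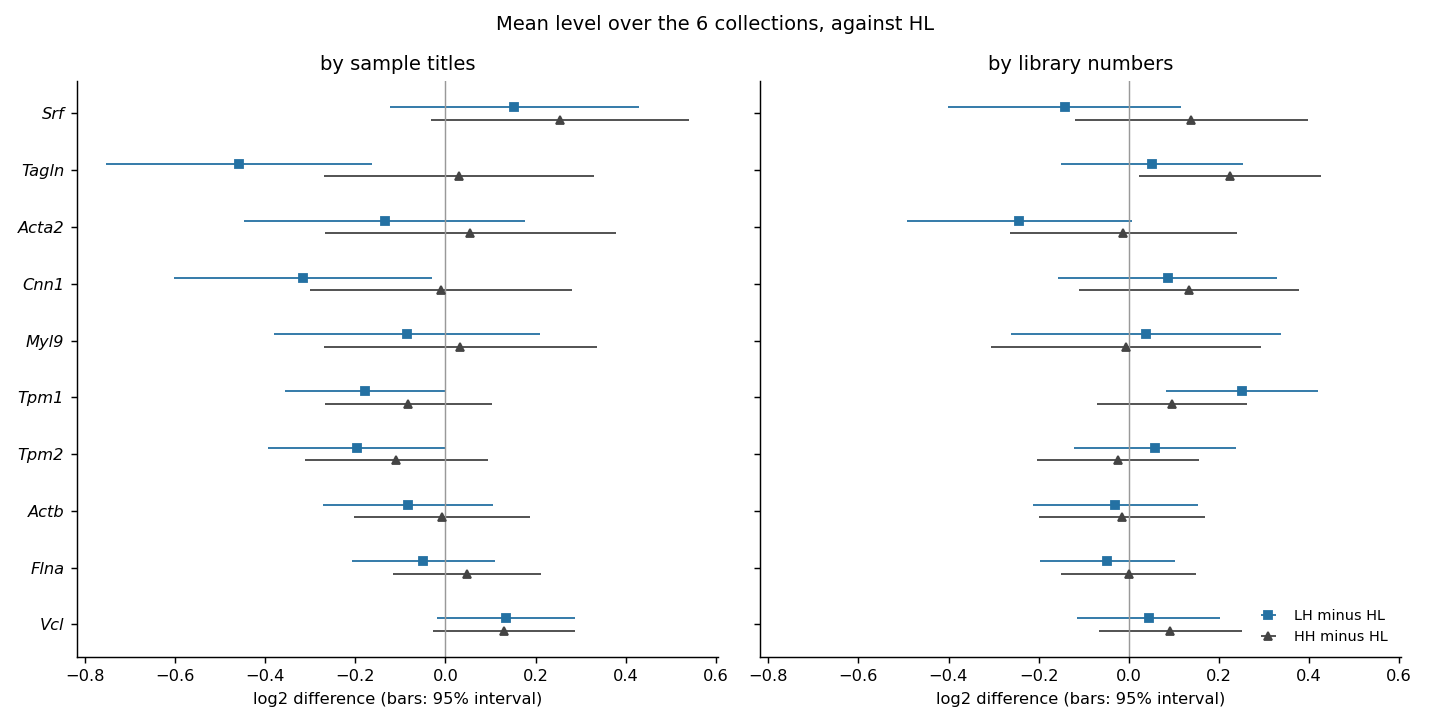
Difference in mean level over the 6 collections from HL (horizontal axis, log2 scale, bars are 95% intervals) for the 10 genes, by titles on the left and by library numbers on the right. Squares are LH minus HL and triangles HH minus HL. By titles the square of Tagln lies at -0.46 with an interval below 0, and by numbers at 0.05 with an interval that spans 0.

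A rhythm of 24 h was sought with JTK_CYCLE, a rank test with an exact null distribution, at the study's P under 0.01. None of the 10 genes passed by titles, against 1.99% of all genes in HH, 0.82% in HL and 1.51% in LH. The lowest P was that of Vcl in HL, at 0.0618 from the exact null with a peak at 14 h. By numbers Tagln passed in LH, with a P of 0.00557 from the exact null and a peak at 0 h, against 2.14% of all genes. No other gene of the group passed by numbers, with 1.82% of all genes past the threshold in HL and 2.0% in HH. A 24 h cosine fitted in edgeR gave an unadjusted P of 0.00151 for Acta2 and 0.00175 for Tagln in HH, where 2.9% of all genes had a P under 0.01 and JTK gave 0.181 and 0.497. By numbers these 2 genes were again under 0.01 in HH (2.89% of all genes), and Tagln alone of the 10 in HL (P 0.00622, against 2.83%) and in LH (P 0.00466, against 1.95%). These data span 1 cycle, and a gene that is high at 1 of 6 collections need not be a rhythm.

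The wider pathway was read from 53 genes, among them SRF cofactors, actins and actin binding, myosin, adhesion and secreted targets, chosen for their textbook roles. Of these 51 were tested, all but Myocd and Actc1. Mrtfa and Mrtfb, the actin-sensing cofactors, had means of 34.8 and 38.8 CPM and passed no test. For change over collections 0 of 51 passed in HL or HH by titles (edgeR, adjusted), beside 0.301% and 0.293% of all genes. In LH 3 passed, beside 2.93% of all genes there. The 3 were Elk3, an ETS partner of SRF (adjusted p 0.022, first collection -0.37), Actg1, the other cytoplasmic actin (0.042, 0.47), and Tpm3, a further tropomyosin (0.020, -0.14), with differences on the log2 scale. By numbers 1 passed in LH, the myosin light chain Myl12a (adjusted p 0.034, first collection 0.53), and 1 in HH, Tagln2, a relative of Tagln (0.026, 0.55), beside 1.05% and 0.803% of all genes. The median difference of the first collection over the list by titles was 0.03 in HH, 0.08 in HL and -0.01 in LH. Over all genes it was 0.018, 0.002 and -0.001. The difference was above 0 for 26, 33 and 25 of the 51 genes, beside 52.3%, 50.3% and 49.7% of all.

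In mean level, Rhoc, a small GTPase that promotes actin assembly, was lower than in HL by 0.19 (SE 0.06) in LH and by 0.18 (SE 0.06) in HH on the log2 scale by titles, and was the 1 gene of 51 past both thresholds in each, beside 1.16% and 1.2% of all genes. By titles 35 of 51 genes of the list were above 0 in LH (median 0.04) and 40 of 51 in HH (median 0.06). The medians of all genes were 0.001 and 0.002, and the share of all genes above 0 is not given. By numbers 24 and 28 of the list were above 0, and no direction of the list is read from these counts. The genes past both thresholds by numbers were Elk1, an ETS partner of SRF, in LH (-0.20, SE 0.10) and Ccn1, a secreted matrix protein and target of SRF, in HH (0.41, SE 0.14), beside 1.34% and 0.568%. With JTK_CYCLE, Lmod1 and Myl12a passed in HH, with exact P of 0.00594 and 0.0006, and none in HL or LH by titles, beside 1.99% of all genes in HH. By numbers Cfl1, Myl6 and Itgb1 passed in LH, beside 2.14%. Nothing about the list is read from these small counts. Lmod1, which builds actin filaments in smooth muscle, peaked at 10 h and Myl12a at 22 h.

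Within groups of 1 treatment and collection, the 10 genes varied together from library to library to unequal degrees. The 45 pairs had Pearson r of -0.25 to 0.92 (median 0.57) over 62 libraries, from log2 CPM as deviations from the group mean. These points share library depth and profile, and correlations are given as descriptions. Actb and Myl9 were closest, with an r of 0.92, and Myl9 and Flna followed with 0.90. Tpm1, Vcl and Srf stood apart. The median r with the other 9 was 0.18 for Tpm1, 0.22 for Vcl and 0.45 for Srf, against 0.73 to 0.81 for the rest. Without the 5 far libraries Tpm1 joined the others with a median r of 0.63, while Vcl stayed at 0.21 and Srf at 0.25. Tpm1 was high in 2 far libraries where Actb and Myl9 were low. LH collection 2 replicate 1 held 1552 CPM of Tpm1, 3501 of Actb and 14.1 of Myl9, and HL collection 5 replicate 2 held 1356, 4662 and 25.5 CPM. With groups by numbers the median over the 45 pairs was 0.54 over 57 libraries, with 0.02 for Tpm1, 0.20 for Vcl and 0.51 for Srf.

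**Figure D5:**
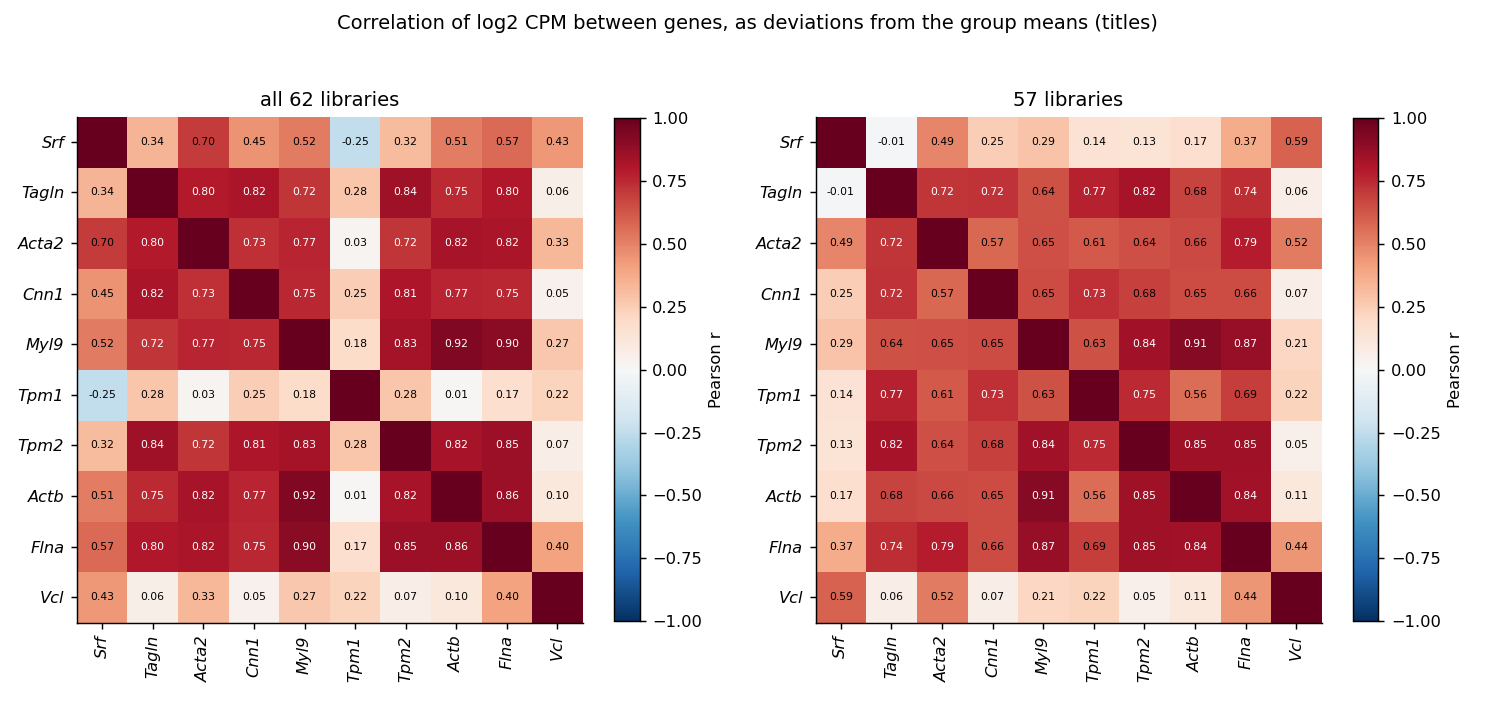
Pearson r between each pair of the 10 genes (colour and printed value, from -1 to 1), over all 62 libraries on the left and over 57 on the right, from log2 CPM as deviations from the mean of each treatment and collection by titles. Tpm1 has a median r of 0.18 on the left and 0.63 on the right, and Vcl has 0.22 and 0.21.

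The genes most like the mean of the group in these deviations, among 7780 with a mean of at least 10 CPM, were Ccnd1, a cyclin of the first growth phase (r 0.91 over 62 libraries), Cnn2, a calponin (0.91), Foxp1 (0.90), Col5a1, a fibrillar collagen (0.90), Maged2 (0.89), Ap2a2 (0.89), Lrrcc1 (0.89) and Fbn1, which encodes fibrillin (0.89). Over the 57 libraries that were not far from the median profile they were Col5a1 (0.88), Ccnd2, Il17rc, Il6st, Mxd4, Ccnd1, Epb41l4a and Cnn2 (0.84). Ccnd1, Cnn2 and Col5a1 were in both lists of 8 by titles. In the corresponding 2 lists by library numbers, Col5a1 was in both, Cnn2 in 1 and Ccnd1 in 0.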

How the data were processed

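Total RNA of fibroblasts was sequenced by 3′DGE, and the authors deposited unnormalized read counts per gene, 121 tables for 62 libraries (59 with 2 runs). The submitters' processing notes name bcl2fastq, STAR 2.6.0a, HTSeq 0.9.1 and mm10. Neither the annotation release nor strand use in counting was stated. Rows that name no gene (no feature 18.4% to 29.1%, ambiguous 0.288% to 0.459%) were left out, and runs were summed. Of 31053 identifiers, 30934 matched GENCODE M21.

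CPM are counts scaled to a library total of 1000000. Groups followed the titles. Tests took genes that reached 1 CPM in 3 or more libraries, in edgeR 4.0.16 (R 4.3.3, TMM scaling, quasi-likelihood) over all 62 libraries, for mean level (treatment and collection as terms, thresholds of 0.01 over treatments and 0.05 for a pair after those of the study, whose second step was a multiple comparison test, here uncorrected) and for change over collections and interaction (Benjamini-Hochberg, 0.05). JTK_CYCLE was written with its exact null, a period of 24 h and steps of 2 h, at 0.01. Tests were checked on simulated data. The named genes were the 10, every listed pathway gene past a test and the 8 most alike in profile. Alternatives were library numbers, DESeq2 1.42.0 and its size factors, no filter, the first run, a replicate block, adjustment, TMM-scaled CPM, a cosinor, libraries over 1000000 counts and leaving out replicates. Those without libraries far from the median profile were chosen after seeing the data. The genes and lists were chosen with earlier results of these data known. Same-numbered replicates did not deviate together.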

Additional observations from a re-analysis of the deposited data

Results flagged for a closer look

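Of 90 groups of 4 libraries, 1 for each of the 10 genes in each treatment and collection with 4, 12 held a library farther from the other 3 than Dixon's 95% limit, and chance gives about 1 in 20. The flags below were set by this distance alone. In the first HH collection, Srf in replicate 3 read 33.3 CPM against 25.2 to 25.8 in the others, Acta2 in replicate 2 read 484 CPM against 701 to 733, and Flna in replicate 1 read 676 CPM against 562 to 574. The low Acta2 library lies in the group that otherwise stands highest for that gene, and still lay above all later HH libraries.

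In the sixth HL collection, replicate 3 was low for several genes, with Actb at 6316 CPM against 12597 to 13499.8, Tagln at 45.2 CPM against 99.9 to 107 and Myl9 at 28.1 CPM against 87.6 to 95.6. It held 12071 CPM of the nuclear RNA Malat1 against 4951 to 9526 CPM in the other 3, and its profile correlated with the median at 0.938. In the sixth HH collection, replicate 1 was high, with Actb at 9632 CPM against 7575 to 7925 and Cnn1 at 52.6 CPM against 26.4 to 29.7. The other flags were Srf in LH collection 5 replicate 1 (34.1 CPM against 19.1 to 21.3), Actb in LH collection 3 replicate 3 (7471 CPM against 11137 to 11485, with Malat1 at 11371 CPM against 5399 to 6204), Vcl in LH collection 6 replicate 4 (174 CPM against 115 to 124) and Tpm1 in HL collection 4 replicate 1 (1052 CPM against 829.4 to 856). The part of Malat1 or of profile in these values was not tested.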

How the results depend on the processing

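The share of tested genes past the threshold by titles was 1.16% and 1.2% for the mean level of LH and HH against HL, 0.301%, 2.93% and 0.293% for change in HL, LH and HH, 0.128% for the interaction, and 0.82%, 1.51% and 1.99% for JTK. Without the filter on low counts the first 6 were 1.87%, 1.92%, 3.08%, 6.05%, 2.4% and 5.19%, with 5, 4 and 3 of the 10 genes for change in HL, LH and HH and 5 for the interaction. There edgeR's prior degrees of freedom were infinite, against 10.1 with the filter. By library numbers the shares that moved by over 1.5 times were 0.568% (level, HH), 1.05% and 0.803% (change, LH and HH), 0% (interaction) and 1.82% (JTK, HL), with 0 of the 10 genes for LH level, 2 and 3 for change in LH and HH and 1 for JTK in LH. By numbers without the far libraries they were 0.93% and 1.48% (change, HL and HH), 0% (interaction), 1.83% and 2.97% (JTK, HL and LH), with 0 of the 10 for LH level, 3, 4 and 3 for change and 1 for JTK in LH. By titles without the far libraries they were 0.95% (change, HH) and 1.41% (interaction), with 2 of the 10 for LH level, 3 for change in HH and 2 for the interaction. With the first run alone they were 1.87% (change, LH) and 0.0439% (interaction). Adjustment over genes left 0% for both levels, 0% for JTK in HL and LH and 0.0226% in HH, and 0 of the 10 for LH level. A cosinor gave 2.54% in LH, and 2 of the 10 genes in HH beside 2.9% of all genes there. The causes were not tested.

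Signs of mean level turned by library numbers, and by numbers without the far libraries. For LH against HL the log2 values were then -0.142 and -0.0648 for Srf, 0.0525 and 0.103 for Tagln, 0.0870 and 0.160 for Cnn1, 0.0374 and 0.134 for Myl9, 0.252 and 0.118 for Tpm1, 0.0574 and 0.108 for Tpm2, and in the second setting alone 0.0486 for Actb, -0.00681 for Vcl and 0.00702 for Flna. For HH against HL they were -0.0120 and -0.0372 for Acta2, 0.134 and 0.143 for Cnn1, 0.0965 and 0.126 for Tpm1, and in the first alone -0.00560 for Myl9 and -6.3e-05 for Flna. By titles without the far libraries Acta2 was at -0.0644, Tagln at -0.0508 and Myl9 at -0.0357, and Cnn1 was at 0.0150 in the first run.

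Leaving out 1 replicate gave 0.665% to 1.64% of genes for LH level, 0.689% to 2.43% for HH level, 0.0454% to 0.659%, 0.349% to 5.35% and 0.0303% to 0.371% for change in HL, LH and HH, 0.00757% to 0.923% for the interaction, and 0.424% to 1.17%, 0.963% to 1.59% and 0.772% to 1.54% for JTK. Of the 10 genes, 0 to 2 passed for LH level and for change in HL and HH, and 0 to 1 for the interaction. Log2 values of LH against HL then ran from -0.00726 to 0.305 for Srf, -0.0910 to 0.00197 for Flna and -0.561 to -0.399 for Tagln, and of HH against HL from -0.0173 to 0.164 for Acta2, -0.0767 to 0.0588 for Actb, -0.0753 to 0.133 for Tagln, -0.0665 to 0.0648 for Cnn1, -0.104 to 0.150 for Myl9 and -0.0114 to 0.09999 for Flna.

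Replicate numbers did not pair the libraries, with a median correlation of deviations of -0.019 for the same number and 0.0014 for different ones. With a replicate block 1.04% and 0.978% of genes passed for level, 0.226%, 3.14% and 0.278% for change and 0.105% for the interaction, and no call of the 10 genes changed. Depth limits Srf and Cnn1 most.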
